A study of Rattus norvegicus with 8 samples.

Results

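miR-375 is a single row, rno-miR-375, among the 620 known rat miRNAs whose reads were listed for 8 kidney libraries. The row was taken by its name together with any row of the same number that carries an arm suffix, and no such further row was listed, so that 1 of the 620 rows is described here. It was selected on its level in CPM (reads scaled to library size) in the treated and control kidneys, which differed. The values of that difference are therefore given as a description, without a test.

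The rats were male and of the Big Blue line, Fisher 344 animals with a transgene in which mutations can be scored. All animals were 6 weeks of age when dosing began. The AA group of 4 rats received aristolochic acid as its sodium salt by gavage at 10 mg/kg, 5 times in each week over 12 weeks, and the control group (CTL) of 4 rats received sodium chloride solution on the same schedule. Aristolochic acid is a plant compound that damages the tubules of the kidney and causes tumors in rats and humans. The small RNA was extracted from pieces of whole kidney, and each library was counted as 1 rat. One field of the labels gives the tissue as liver, whereas the study and the remaining text of the labels give the kidney. Reads on the listed miRNAs summed to 15250865, 14674442, 15525397 and 13736874 in the control libraries and to 13412373, 15200830, 13814612 and 15616670 in those of the AA rats. By a two-sided exact permutation test the totals gave p = 0.771 between the groups (n = 4 each).

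A miRNA is cut by Drosha and Dicer from a hairpin transcript and is loaded into an Argonaute protein, where its seed, bases 2 to 8, pairs with target messenger RNAs and lowers their output. miR-375 is best known from the pancreatic islet, where it restrains insulin secretion and supports the mass of endocrine cells, and it is also found in the pituitary and in several epithelia. In several carcinomas it is known to be reduced.

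The sequences are shown because the seed and the hairpin tell miR-375 apart from the other mature miRNAs of the RefSeq table. They were taken from the RefSeq annotation of the rat assembly GRCr8, which is later than the annotation behind the counts. The plain name miR-375 has long stood for the 3p arm. The capitals mark the seed in both mature arms and the 3p arm in the hairpin.
rno-miR-375-3p: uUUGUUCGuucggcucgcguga
rno-miR-375-5p: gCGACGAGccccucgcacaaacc
Mir375: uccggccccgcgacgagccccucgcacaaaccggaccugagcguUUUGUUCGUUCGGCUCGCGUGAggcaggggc
The hairpin of 75 nt lies on the minus strand at chr9:83906582-83906656 in GRCr8. The 5p arm takes bases 10 to 32 of it and the 3p arm bases 45 to 66. The hairpin overlaps the annotated span of Cryba2, a lens crystallin gene on the same strand, and that of LOC134480387 on the opposite strand. Whether it falls in an exon or an intron of these was not resolved here. The nearest protein-coding genes beyond them are Fev, an ETS transcription factor, and Cfap65, a cilia and flagella gene. No other miRNA gene was annotated within 50 kb, so that miR-375 has no clustered partner in that window. RNAfold gave a predicted structure of the hairpin with 25 base pairs and a minimum free energy of -34.3 kcal/mol.

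The seed of miR-375-3p was not shared. Of the 693 mature miRNA names in the RefSeq table, 0 others had the same bases 2 to 8, and 0 others differed from them at a single base. The mature sequence is also rich in CpG. It holds 4 CpG steps in 22 nt, whereas 63.1% of the mature sequences hold none, and 4 others hold at least as many (miR-341, miR-323-5p, miR-1247-5p and miR-1199-5p). The rows listed under the numbers of miR-341 and miR-323 had at most 0.733 CPM on average in the control kidney, and the numbers of the other two had no row.

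In the control libraries, miR-375 had 3917, 3169, 2880 and 3543 reads, and in the AA libraries it had 579, 413, 1020 and 727 reads. As CPM (reads divided by library sizes that were scaled with the TMM method of edgeR and multiplied by 1000000), this was 294, 233, 179 and 289 in the control rats and 44.8, 22.4, 70.2 and 43.1 in the AA rats. The third control rat was the lowest of its group, the third AA rat was the highest of its group, and the groups did not overlap. Of all tested miRNAs, the 367 that reached 10 reads in 4 or more of the 8 libraries, 9.81% had groups that do not overlap with the AA rats below. The lowest control value was 2.55 times the highest AA value, and the highest control value was 13.1 times the lowest AA value.

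Control rats had a mean of 249 ± 54.1 CPM and AA rats one of 45.1 ± 19.6 CPM (SD, n = 4 each), so that the AA mean was 18.1% of the control mean. The fit of edgeR over all tested miRNAs gave a log2 fold change of -2.46 with a standard error of 0.33. Over the 16 pairs of 1 control and 1 AA rat, the log2 difference in CPM lay between -1.35 and -3.71. In bulk kidney, fewer cells that express miR-375 and less miR-375 per cell cannot be told apart.

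**Figure D1:**
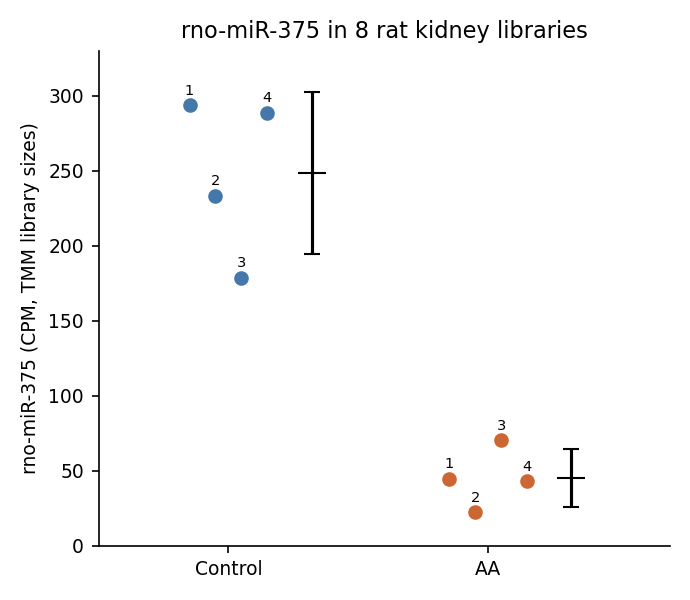
rno-miR-375 in CPM (linear axis from 0) in each control and AA library, with the library number beside each point and the mean with its SD (n = 4) as a bar to the right. The 4 control rats sit between 179 and 294 CPM and the 4 AA rats between 22.4 and 70.2 CPM.

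The number of reads was large enough that counting error was a small part of the spread. With 413 reads, the fewest in any library, the counting error is 4.92% of the value, and with 3917 reads it is 1.60%. As a share of all listed reads, miR-375 made up 0.0257% in the first control library (95% Wilson interval 0.0249% to 0.0265%) and 0.00272% in the second AA library (0.00247% to 0.00299%), and these intervals cover counting error only. Between rats of the same group, the coefficient of variation was 21.8% in control and 43.4% in AA rats. The highest AA value was 3.13 times the lowest, against 1.64 times in the control group. Without the second AA library these AA values were 28.8% and 1.63 times, and without the third control library those of the control group were 12.3% and 1.26 times, so that each group's spread rests in large part on 1 library. Among the 35 other tested miRNAs with a control mean within 2-fold of that of miR-375, the median coefficient of variation was 16.4% in control and 18.9% in AA rats. miR-375 was exceeded by 13 of them among control rats and by 2 among AA rats. In the AA group these 35 miRNAs held places 22 to 116 by mean level, all above miR-375 at place 147, so that they match its abundance in the control group only.

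Within a library, the place of miR-375 among the 620 rows does not depend on scaling. It ranked 89, 91, 97 and 82 in the control libraries and 144, 173, 127 and 151 in the AA libraries, with 1 for the most abundant miRNA. By the group means of CPM it went from place 91 to place 147, a loss of 56 places. Of the 100 most abundant miRNAs of the control kidney, no other lost more places. The next largest loss was that of rno-miR-3545-3p, with 27 places.

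**Figure D2:**
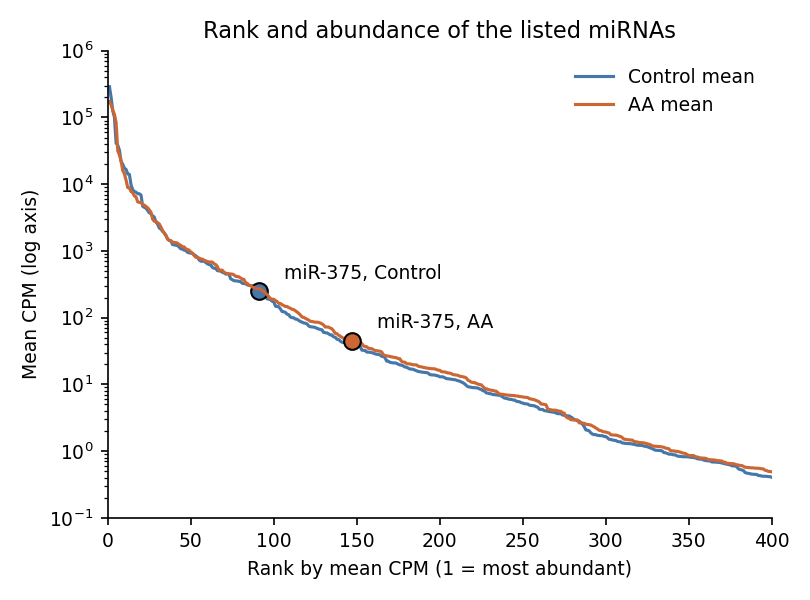
Mean CPM (log axis) against the rank by mean CPM for the first 400 places in the control and AA groups, with miR-375 as a large point on each line. The lines lie close together, while miR-375 moves from place 91 to place 147.

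A miRNA is named as called where the adjusted p-value from edgeR was under 0.05. Next to miR-375 in the control ranking, just above were rno-miR-144*, rno-miR-106b and rno-miR-107, and just below were rno-miR-218, rno-miR-425 and rno-miR-3559-5p. rno-miR-107, a miRNA encoded in a pantothenate kinase intron, fell by 0.72 on the log2 scale, from a mean of 249 ± 59.3 CPM to one of 151 ± 18.9 CPM (SD, n = 4 each; adjusted p = 0.037 from the quasi-likelihood test of edgeR). That call was kept in 5 of the 15 alternative fits, which used other scalings, filters or tests, a block, or 1 library fewer. rno-miR-425 rose by 0.80 on that scale, from 225 ± 22.5 CPM to 392 ± 112 CPM (SD, n = 4 each; adjusted p = 0.028 from edgeR), and this call was kept in 9 of the 15. The other 4 were not called, with log2 fold changes between -0.67 and 0.26. Over the 35 miRNAs within 2-fold of the control level of miR-375, 5 were called higher (10.4% of all tested miRNAs were), 1 was called lower (5.99% of all were) and 29 were not called. Their median log2 fold change was 0.11, with a lowest value of -0.72 and a highest of 3.80, that of rno-miR-34c.

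Of the 367 tested miRNAs, 60, or 16.3%, were called between the groups. Of these, 38 (10.4%) were higher and 22 (5.99%) were lower in the AA group. These percentages stand beside the description of miR-375 as a background, and nothing is read from them, since the row was chosen for this contrast. All tested miRNAs together had a median log2 fold change of 0.06. miR-375 was second from the lowest log2 fold change, behind rno-miR-219-2-3p.

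No other abundant miRNA fell as far. Of the tested miRNAs other than miR-375 with a control mean of at least 100 CPM, 8 were called lower and 8 higher. The 8 that were lower had log2 fold changes between -1.26 and -0.68. They were rno-miR-3545-3p, rno-miR-103, rno-miR-152, rno-miR-378, rno-miR-148b-3p, rno-miR-194, rno-miR-107 and rno-miR-140*. Of the 15 alternative fits, rno-miR-107 was called in 5, rno-miR-194 in 8, rno-miR-378 and rno-miR-140* in 12 each and the other 4 in all 15. rno-miR-3545-3p had 1142 ± 400.1 CPM in control and 478 ± 70.7 CPM in AA kidneys (SD, n = 4 each; log2 fold change -1.26, adjusted p = 0.0057 from edgeR). rno-miR-103 was at 16690 ± 4420 and 7466 ± 1691 CPM (SD, n = 4 each; log2 fold change -1.16, adjusted p = 0.0057 from edgeR). None of the 111 tested miRNAs from 100 CPM upwards had a lower log2 fold change than miR-375 in the edgeR fit or in any of the 15 alternative fits.

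**Figure D3:**
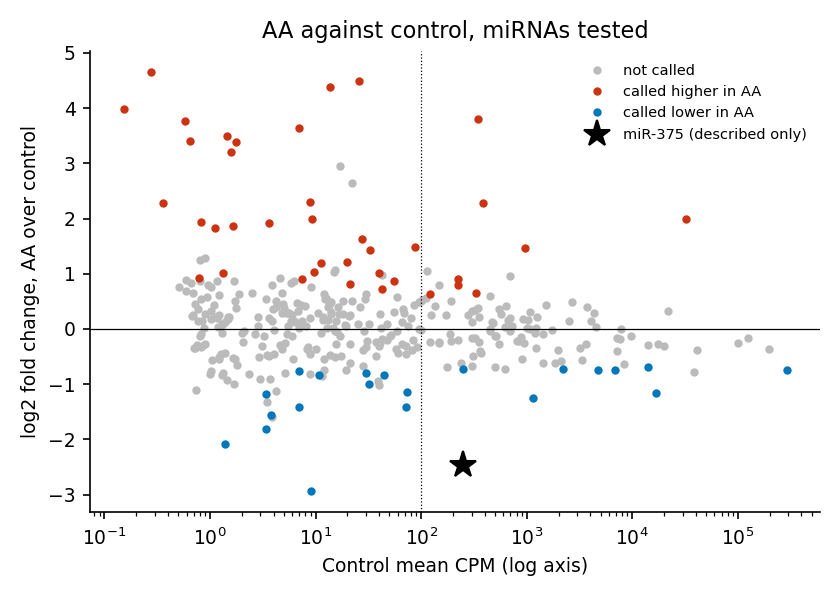
log2 fold change of AA over control against the control mean CPM (log axis) for the tested miRNAs, colored by the edgeR call, with miR-375 as a star and a dotted line at 100 CPM. To the right of that line, miR-375 lies at -2.46 and the next lowest miRNA at -1.26.

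Some of these abundant miRNAs shared a seed. RefSeq sequences were matched, by the arm their name stands for, for miR-375 and for those named above except rno-miR-3545-3p. Of these 8, 4 fell into 2 pairs with the same bases 2 to 8, while miR-375, rno-miR-194, rno-miR-378 and rno-miR-140* shared their seed with none of the set. The sequences below show these pairs, with the seed in capitals.
rno-miR-103-3p: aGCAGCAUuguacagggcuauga
rno-miR-107-3p: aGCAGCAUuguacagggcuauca
rno-miR-152-3p: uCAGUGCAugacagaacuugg
rno-miR-148b-3p: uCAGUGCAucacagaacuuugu
Reads of such near-identical members can be counted on each other, so that rno-miR-103 and rno-miR-107 are uncertain as separate measurements. No other mature name of RefSeq had the seed of miR-375 or one that differed from it at a single base. The rest of the mature sequence was not compared, so that a partner in counting was not searched for.

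miR-375 is a miRNA of endocrine cells, and other miRNAs known from neuroendocrine tissue were examined beside it. None of the 3 tested members was called, against 16.3% of all tested miRNAs, and their median log2 fold change was -0.31. rno-miR-7a, which is abundant in islets and in the pituitary, had 860, 808, 829 and 1139 CPM in the control rats and 782, 511, 447 and 756 CPM in the AA rats. Every AA rat was below every control rat for this miRNA, as in 9.81% of all tested miRNAs, but its log2 fold change of -0.54 was not called (adjusted p = 0.12 from edgeR). rno-miR-9, a miRNA of neurons that is also found in islets, had 324 ± 45.4 and 409 ± 131 CPM in the control and AA groups (SD, n = 4 each; log2 fold change 0.33, adjusted p = 0.35 from edgeR). rno-miR-184, which is known from beta cells and from the eye, had 71.2 ± 35.8 and 57.6 ± 18.7 CPM (SD, n = 4 each; log2 fold change -0.31, adjusted p = 0.60 from edgeR). rno-miR-7b, rno-miR-124 and rno-miR-153 did not reach the minimum number of reads, and their group means were at most 1.26 CPM. Of these, rno-miR-124, a miRNA of neurons, had 1, 1, 0 and 3 reads in the control libraries and 7, 32, 7 and 17 reads in the AA libraries. Its groups did not overlap, with the AA rats above, as in 14.4% of all tested miRNAs. miR-375 reads per 1000 reads of these 6 miRNAs were 190 ± 35.6 in control and 41.0 ± 17.4 in AA rats (SD, n = 4 each).

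Markers of epithelium, not all of them of the kidney, were examined in 3 lists. The miR-200 family, which keeps cells epithelial by repressing the Zeb transcription factors, had 0 of 5 members called (miR-200a, miR-200b and miR-429 of one cluster, miR-200c and miR-141 of another), against 16.3% of all tested miRNAs. Their log2 fold changes lay between -0.34 and 0.42 with a median of -0.07. Their summed level was 9141 ± 1566 CPM in control and 8050 ± 1912 CPM in AA rats (SD, n = 4 each), and rno-miR-200b was the most abundant. A ratio of reads within a library does not depend on its scaling. Per 1000 reads of the miR-200 family, miR-375 had 31.5, 25.4, 16.3 and 40.6 reads in the control rats and 5.84, 2.45, 7.11 and 7.78 reads in the AA rats. The AA mean was 20.4% of the control mean in this ratio. The numerator is the row chosen for this contrast, so that lower ratios in AA rats are largely set by that choice. The ratios to this and to the other lists are therefore a description.

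Of the second epithelial list, with the miR-183 cluster (miR-96, miR-182 and miR-183), miR-203 of stratified epithelium and miR-205 of basal epithelium, 0 of 5 members were called, again against 16.3%. rno-miR-205 had 9.82, 53.9, 12.7 and 12.7 CPM in the control rats and 24.0, 443, 43.1 and 43.2 CPM in the AA rats. The groups overlapped, and its log2 fold change of 2.63, in size above that of miR-375, was not called (adjusted p = 0.097 from edgeR) and was 0.63 without the second AA library. The median log2 fold change was 0.14, and the summed level was 6604 ± 1449 CPM in control and 6656 ± 2221 CPM in AA rats (SD, n = 4 each), with rno-miR-182 as the most abundant. Per 1000 reads of this list, miR-375 had 37.8 ± 5.06 reads in control and 7.24 ± 4.04 reads in AA rats (SD, n = 4 each).

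Of the nephron list, 2 of 6 members were called lower, against 5.99% of all tested miRNAs. rno-miR-194, which shares a transcript with miR-192, had a log2 fold change of -0.73 (adjusted p = 0.0499 from edgeR), and rno-miR-204, an epithelial miRNA from a Trpm3 intron, had -0.80 (adjusted p = 0.034 from edgeR). Each call was kept in 8 of the 15 alternative fits. Both were lost with total counts in place of TMM scaling, where the log2 fold changes were -0.53 and -0.57, and also with no filter and without control library 1, 2 or 4 or AA library 3. rno-miR-192 was at -0.79 and rno-miR-30a, rno-miR-30c and rno-miR-30d were between -0.28 and -0.13, none of them called. Control library 4 had rno-miR-192 at 74962 CPM, against 21509 to 32806 CPM in the other controls, and without it rno-miR-192 was at -0.24. The median of the list was -0.50. Its summed level was 193399 ± 34254 CPM in control and 158256 ± 24106 CPM in AA rats (SD, n = 4 each), most of it from rno-miR-30a. Per 1000 reads of this list, miR-375 had 1.42, 1.39, 1.09 and 1.22 reads in the control rats and 0.260, 0.177, 0.388 and 0.281 reads in the AA rats. The AA mean was 21.6% of the control mean in this ratio, with a smaller spread within the control group than against the other lists.

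**Figure D4:**
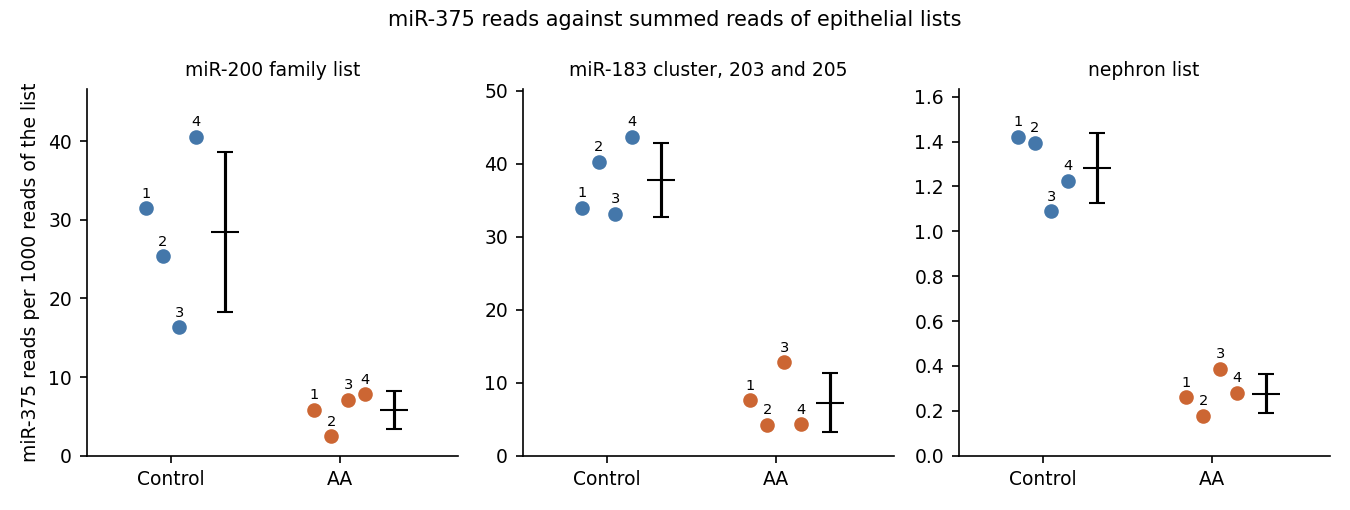
miR-375 reads per 1000 summed reads of the miR-200 family, of the second epithelial list and of the nephron list (linear axes from 0) in each library, with the library number and the mean with its SD (n = 4). In all 3 panels the 4 AA rats lie below the 4 control rats, and the AA mean is between 19.2% and 21.6% of the control mean. The numerator is the row chosen for this contrast, so that this is a description.

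Some members of the stromal and injury, leukocyte and miR-34 lists were called between the same groups. Their part in the fall of miR-375 was not tested. The stromal and injury list rose in 2 of 4 members, against 10.4% of all tested miRNAs. These were rno-miR-21 (log2 fold change 1.99, adjusted p = 0.0012 from edgeR) and rno-miR-199a-3p (0.65, adjusted p = 0.033 from edgeR). Its summed level went from 32888 ± 4516 to 129396 ± 51164 CPM (SD, n = 4 each), nearly all of it rno-miR-21, and its median log2 fold change was 0.73. In the leukocyte list 3 of 6 members were called higher, against the same 10.4%. These were rno-miR-142-3p, rno-miR-146b and rno-miR-223, with log2 fold changes of 1.47, 2.27 and 1.02 (adjusted p = 0.0018, 0.0014 and 0.019 from edgeR). The other 3 were not called, with rno-miR-146a at -0.09, rno-miR-142-5p at 0.30 and rno-miR-150 at 0.58. The list's sum was 2926 ± 464.3 CPM in control and 6085 ± 1594 CPM in AA rats (SD, n = 4 each). Its most abundant member in the control group was rno-miR-146a, and the list's median was 0.80. Of the miR-34 family, known as induced by p53, rno-miR-34a and rno-miR-34c rose, with log2 fold changes of 4.48 and 3.80 (adjusted p = 4.1e-06 and 6.1e-05 from edgeR), against 10.4% of all tested miRNAs. rno-miR-34b was also called higher, but it had 10, 6, 13 and 4 reads in the control libraries and 108 to 163 in the AA libraries and passed the minimum of reads only through the AA group, so that nothing is read from its call. The family summed to 374 ± 104 and 5447 ± 2620 CPM (SD, n = 4 each). rno-miR-199a-3p was called in 6 and rno-miR-223 in 10 of the 15 alternative fits, and rno-miR-21, rno-miR-142-3p and rno-miR-146b in all 15.

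The remaining lists had no called member, against 16.3% of all tested miRNAs. The red blood cell miRNAs miR-144 and miR-451 had a summed level of 636 ± 130 CPM in control and 388 ± 171 CPM in AA rats (SD, n = 4 each; median log2 fold change -0.61, 0 of 2 called), most of it rno-miR-451. The endothelial arms miR-126 and miR-126* summed to 9709 ± 1240 and 8117 ± 1409 CPM (median -0.38, 0 of 2 called), most of it rno-miR-126. The muscle miRNAs summed to 45.2 ± 12.5 and 35.0 ± 5.53 CPM (median -0.75, 0 of 3 tested called), most of it rno-miR-1. miR-155 of the leukocyte list and miR-486 of the red blood cell list had no row. No listed marker was at 0 in every library.

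**Figure D5:**
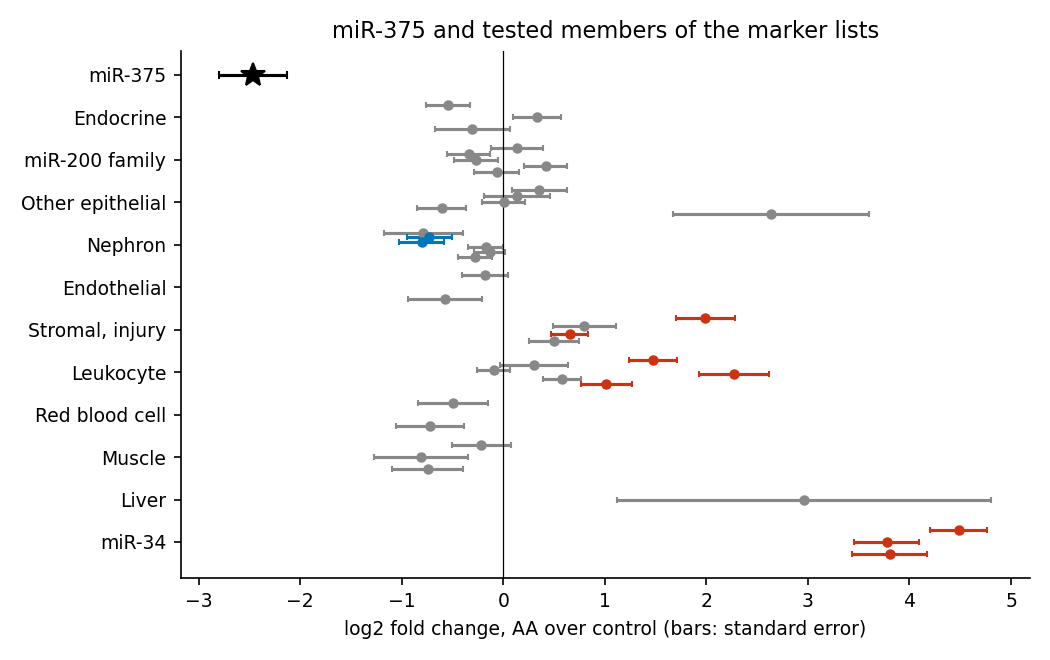
log2 fold change of AA over control with its standard error for miR-375 (star) and for each tested member of the marker lists, red for called higher, blue for called lower and grey for not called. miR-375 lies at -2.46, left of all listed markers, whose lowest value is -0.81 for rno-miR-133a. That marker was at -1.26 without the third control library and at -0.28 without the fourth.

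The label of the tissue was checked with miR-122, the main miRNA of liver cells. By group means it held place 183 of the 620 rows in control and place 112 in AA rats, not the place of a tissue's main miRNA. It had 53.0, 4.05, 5.89 and 4.89 CPM in the control rats and 0.696, 523, 2.96 and 1.18 CPM in the AA rats, so that the first control and second AA libraries stand apart. The second AA library also had the highest rno-miR-205 and the lowest miR-375. Without that library, the log2 fold change of miR-375 was -2.30 with a standard error of 0.27, and the 3 remaining AA rats lay between 43.1 and 70.2 CPM. Without the first control library it was -2.37.

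Across the 8 libraries, a few miRNAs followed miR-375 closely. Likeness was measured as the Pearson correlation of log2 CPM over the 8 libraries, among the tested miRNAs, and the 8 points share the difference between the groups and the scaling of each library. The highest values were those of rno-miR-378 (r = 0.97), rno-miR-194* (0.95), rno-miR-338 (0.94), rno-miR-653 (0.94) and rno-miR-152 (0.94). Their log2 fold changes lay between -1.14 and -0.75. Rows like one that is lower in the AA group are largely bound to be lower there too, so that these values are a description. rno-miR-378, which lies in an intron of the coactivator gene Ppargc1b and is the most abundant row, had 311897, 297265, 224020 and 323999 CPM in the control rats and 175398, 146519, 201606 and 166773 CPM in the AA rats. The third control rat was the lowest of its group for both miRNAs, and the second AA rat was the lowest and the third AA rat the highest of the AA group for both. rno-miR-653 had 73.1 ± 25.6 CPM in control and 33.1 ± 7.47 CPM in AA rats (SD, n = 4 each; log2 fold change -1.14).

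The lowest correlations were those of rno-miR-466b-2* (r = -0.98), rno-miR-505 (-0.96) and rno-miR-224 (-0.96). rno-miR-224 had 1.59 ± 0.763 and 14.8 ± 5.16 CPM in the control and AA groups (SD, n = 4 each), and rno-miR-466b-2* had 1.12 ± 0.287 and 4.02 ± 0.936 CPM. Their log2 fold changes were 3.20 and 1.84, in the direction that the choice of opposite rows largely sets. Both had a control library with 9 reads and passed the minimum of reads only with the AA group. Nothing is read from their values. Reads were few for these, with 9 to 33 in the control libraries for rno-miR-224 and 9 to 23 for rno-miR-466b-2*, and also for rno-miR-338 above, with 57 to 111 over the 8 libraries, and rno-miR-194*, with 88 to 163. rno-miR-505 had 29.4 ± 2.84 and 42.7 ± 3.16 CPM (SD, n = 4 each).

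With the group means removed, the spread among rats of the same group and the scaling of each library were left. The order was then different. The highest correlations of these deviations over the 8 libraries were those of rno-miR-30a (r = 0.93), rno-miR-125a-5p (0.89), rno-miR-378 (0.88), rno-miR-125b-5p (0.87) and rno-miR-30a* (0.83). Of these 5, rno-miR-378 was also among the 5 closest to miR-375 over the whole set, and it was called lower, against 5.99% of all tested miRNAs. The other 4 were not called and had log2 fold changes between -0.37 and 0.00044. rno-miR-30a, an abundant miRNA of the nephron, had 142058, 115355, 115262 and 129870 CPM in the control rats and 119978, 88678, 131974 and 105186 CPM in the AA rats. The first control rat was the highest of its group for both miR-375 and rno-miR-30a, and the second AA rat the lowest of the AA group for both. The TMM factors of these libraries were the lowest (0.874) and the highest (1.21) of the 8. The part of this shared scaling in the correlations was not tested.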

How the data were processed

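Small RNA of 8 kidneys was sequenced with an Illumina Genome Analyzer II. Reads were mapped by the authors with miRanalyzer and Bowtie to known rat miRNAs of miRBase, and whole counts per miRNA and library were deposited without normalization. The processing notes also name DESeq, and the versions of Bowtie and DESeq are not given in the sources used here.

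Counts were fitted with edgeR 4.0.16 (R 4.3.3; quasi-likelihood test, TMM, Benjamini-Hochberg adjustment, threshold 0.05) over the 367 miRNAs that reached 10 reads in 4 or more libraries. CPM are reads over TMM library sizes, and correlations used log2 CPM with a prior count of 2. The standard error is the absolute log2 fold change over the square root of F. The hairpin was folded with RNAfold (ViennaRNA 2.7.2). The fit was tested on simulated data, but no outcome of that test is given here and nothing is read from it. Libraries held 13412373 to 15616670 reads.

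miR-375, the lists and the tests were chosen with earlier results of these data known. Named are miR-375, members of the lists, the 3 rows on each side of it in the control ranking, the 5 most and 3 least correlated with it, the 5 most correlated within groups, and called falls from at least 100 CPM in the control group. rno-miR-219-2-3p was named after its values were seen. Alternatives were size factors of DESeq2 1.42.0, total counts, upper quartile scaling, the DESeq2 Wald test, no filter, 10 reads required in every library, a block on library number, and omission of single libraries.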

Additional observations from a re-analysis of the deposited data

Results flagged for a closer look

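In 92 groups of 4 libraries, those of miR-375 and of the listed markers, 11 values stood apart from the rest of their group by Dixon's criterion, and chance gives about 1 in 20 groups, or 4.6. miR-375 was not among them. The second AA library had miR-122 at 523 CPM (others of its group 0.696 to 2.96), miR-122* at 16.4 CPM (others at 0) and miR-205 at 443 CPM (others 24.0 to 43.2). The first control library had miR-122 at 53.0 CPM (others 4.05 to 5.89), miR-122* at 1.72 CPM (others 0.163 to 0.310) and miR-146b at 512 CPM (others 332 to 349). The second control library had miR-205 at 53.9 CPM (others 9.82 to 12.7). The fourth control library had miR-7a at 1139 CPM (others 808 to 860) and miR-7b at 3.50 CPM (others 0.434 to 0.600). The fourth AA library had miR-34a at 877 CPM (others 442 to 516) and miR-96 at 139 CPM (others 66.5 to 73.2). No source of these values was tested.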

How the results depend on the processing

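The log2 fold change of miR-375 lay between -2.56 and -2.26 over 7 other scalings, tests and filters, and between -2.76 and -2.30 in the 8 fits that each omit a library. Total counts moved the median of all tested miRNAs from 0.06 to 0.27 and miR-375 to -2.26. In the fit without a filter miR-375 was sixth from the lowest.

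The count of called miRNAs was 60 of 367 (16.3%; 10.4% higher and 5.99% lower), with 52 to 78 over the other settings. In the fits that omit a library it was 35 to 51 (24 to 33 higher, 10 to 21 lower), with 35 without the second and 37 without the first control library. Those higher were 25 without the second and 24 without the third control library and 25 without the first AA library, and those lower were 10 without the first, 10 without the second and 14 without control library 4. With total counts, 54 were higher and 14 lower. Of the listed markers, 10 of 40 were called, 8 higher and 2 lower, beside those shares. One of the 8 is rno-miR-34b, which passed the minimum of reads only through the AA group. In the fits that omit a library this was 6 to 8, of which 0 to 2 were lower, and it was 6 without the first and 6 without the second control library. None was called lower without control libraries 1, 2 or 4 or AA library 3, and 1 was without the first or the second AA library. The number called lower was 0 with total counts, 0 without a filter and 4 with the replicate block.

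The titles carry the numbers 1 to 4 in both groups. Deviations from the group means of same-numbered libraries correlated at 0.05, 0.20, 0.14 and 0.35 across miRNAs, and not every pair exceeded 0.1. Libraries 2, 3 and 4 of both groups each correlated most with their own number, and the first of each group with another. By the rule that every pair must exceed 0.1, the numbers were not taken as a pairing, although 3 of the 4 did. With the replicate block, 78 miRNAs were called, 47 higher and 31 lower. It called 15 listed markers, 11 of them higher, among them rno-miR-205 (1.97), rno-miR-203 (-0.61) and rno-miR-7a (-0.57), whose lists had no call without it, and miR-375 was at -2.56.

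Markers and other named miRNAs that were not called changed sign under some settings, and the cause was not tested. rno-miR-122 went from 2.96 to -3.37 without the second AA library, to 4.73 without the first control library and to -1.26 with the replicate block. With total counts the log2 fold changes were 0.021 for rno-miR-126, 0.12 for rno-miR-146a, 0.028 for rno-miR-30a, 0.077 for rno-miR-30c, 0.0030 for rno-miR-3559-5p and 0.14 for rno-miR-429. rno-miR-125a-5p was at -0.054 with DESeq2 size factors and with the DESeq2 Wald test, at -0.10 with upper quartile scaling, at -7.3e-05 without a filter and at -0.0078 with the replicate block. rno-miR-183 was at -0.045 with DESeq2 size factors and with the Wald test and at -0.11 with upper quartile scaling. In the fits that omit a library, the ranges were -0.16 to 0.074 for rno-miR-125a-5p, -0.14 to 0.21 for rno-miR-141, -0.043 to 0.46 for rno-miR-142-5p, -0.24 to 0.026 for rno-miR-146a, -0.40 to 0.28 for rno-miR-182, -0.19 to 0.22 for rno-miR-183, -0.64 to 0.035 for rno-miR-184, -0.21 to 0.016 for rno-miR-429 and -0.075 to 0.44 for rno-miR-96. By Spearman correlation, 7 rows lay at or above the fifth value because of ties, and 3 of the 5 rows most like miR-375 were among them. The spread of miR-375 without single libraries was added after seeing the data, and its coefficient of variation was 12.3% to 25.6% in the control group and 28.8% to 53.0% in the AA group.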
